A study of Homo sapiens with 6 samples.

Results

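The 78 protein-coding genes with an MRPL or MRPS symbol were taken from the Ensembl rows of 6 RNA sequencing libraries of T24 cells. They were chosen by symbol alone, as MRPL or MRPS followed by a number and an optional final letter. They comprise 49 MRPL and 29 MRPS genes among 58233 Ensembl rows, of which 19791 were protein-coding. A further 80 pseudogene rows and 7 other noncoding rows with such a symbol were left out. T24 is an established line from a human urinary bladder carcinoma. The Q63E cells (n = 3 libraries) stably carried a constitutively active mutant of RhoC, a small GTPase, and the VEC cells (n = 3 libraries) carried the vector. Both were made with lentiviral supernatant and selected with puromycin, so the VEC cells share the transduction and the selection. The labels name no clone, no promoter of the transgene and no separate cultures, so the p-values rest on differences among libraries that may be technical repeats.

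Mitochondria hold their own ribosome, which makes the few proteins encoded by the mitochondrial genome, all of them subunits of the respiratory chain and the ATP synthase. Its ribosomal RNAs are transcribed inside the organelle, whereas its proteins are encoded in the nucleus, made in the cytoplasm and imported. The large subunit joins amino acids and the small subunit reads the messenger RNA, and each combines proteins of bacterial ancestry with proteins found only in mitochondria. Symbols do not follow the subunits throughout. MRPS30 and MRPS18A encode proteins of the large subunit, and MRPS36 encodes a component of the alpha-ketoglutarate dehydrogenase complex, so by structure 51 members belong to the large and 26 to the small subunit.

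The values deposited by the authors are taken as FPKM, that is, fragments scaled by transcript length and by library size. RHOC, which counts the transgene and the cell's own gene together, stood at 1770, 1726 and 1744 FPKM in the Q63E libraries, against 232, 218 and 232 FPKM in the VEC libraries. The difference matches the labels. The keratins KRT7, KRT8 and KRT18 were abundant in both groups. Of 6 listed epithelial markers, the 4 tested were all keratins, and all 4 were higher in Q63E cells. KRT19 differed most, at 161 FPKM in Q63E and 5.67 FPKM in VEC cells, and the part of these keratins in the results was not tested. EPCAM and CDH1, the other genes of that list, were not among the genes tested. CDH1 and UPK3A, markers of epithelium and urothelium, were listed at 0 in all 6 libraries, as were the leukocyte genes PTPRC and CD3E. Of the urothelial markers, PPARG was higher, at 21.3 FPKM in Q63E and 13.2 FPKM in VEC cells (adjusted p = 0.000586, limma). GATA3 had 0.363 FPKM in Q63E and 1.79 FPKM in VEC cells, FOXA1 had 4.28 FPKM in Q63E and 3.72 FPKM in VEC cells, and neither was called. The other uroplakin genes were below 1 FPKM in each library. All endothelial markers and the leukocyte markers CD14 and LYZ were below 1 FPKM in each library, and the fibroblast gene COL1A1 had 2.21 FPKM in Q63E and 1.30 FPKM in VEC cells. The pairwise correlation of log2 values was 0.968 to 0.976 within groups and 0.953 to 0.958 between them. Genes of the mitochondrial chromosome held 6.27%, 5.58% and 5.64% of the summed value in Q63E libraries, against 8.97%, 9.44% and 8.44% in VEC libraries. With the values scaled to the sum without that chromosome, 18 members were called lower and 2 higher, beside 16 and 4 without this scaling. Differences below are log2 differences of FPKM + 1, Q63E minus VEC, tested with limma and adjusted over all 13346 genes with a mean of at least 1 FPKM. All 78 members reached that mean, and a gene is called where the adjusted p is under 0.05.

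The mitochondrial ribosomal protein genes were expressed in a narrow band in both groups. The median member stood at 41.0 FPKM, averaged over the 6 libraries, against 12.8 FPKM for the median of all genes tested, and 76 members lay above the latter. Between 20 and 80 FPKM lay 56 members, while 10 were lower and 12 higher. MRPL12, a protein of the stalk that receives the translation factors, was the most abundant at 148 FPKM. The next MRPL genes were MRPL43, MRPL28 and MRPL20, with Q63E means of 133, 128 and 117 FPKM and VEC means of 122, 125 and 126 FPKM. Among MRPS genes the highest was MRPS24, at 135 ± 6.3 FPKM in Q63E cells and 135 ± 5.1 FPKM in VEC cells (SD, n = 3 each).

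The lowest member was MRPL23, which lay at 1.31, 3.58 and 2.06 FPKM in Q63E libraries, against 4.17, 1.60 and 3.31 FPKM in VEC libraries. Its groups overlapped and the 3 libraries of each group differed widely. MRPL50 followed, with 5.10 ± 0.49 FPKM in Q63E cells and 6.42 ± 0.46 FPKM in VEC cells (SD, n = 3 each). MRPS17 and MRPS21 were the lowest of the MRPS genes. MRPS17 had 13.3 FPKM in Q63E and 12.8 FPKM in VEC cells, and MRPS21 had 11.7 FPKM in Q63E and 14.8 FPKM in VEC cells. The spread within a group was small for most members, with a median coefficient of variation of 5.28% in Q63E and 6.13% in VEC libraries.

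**Figure D1:**
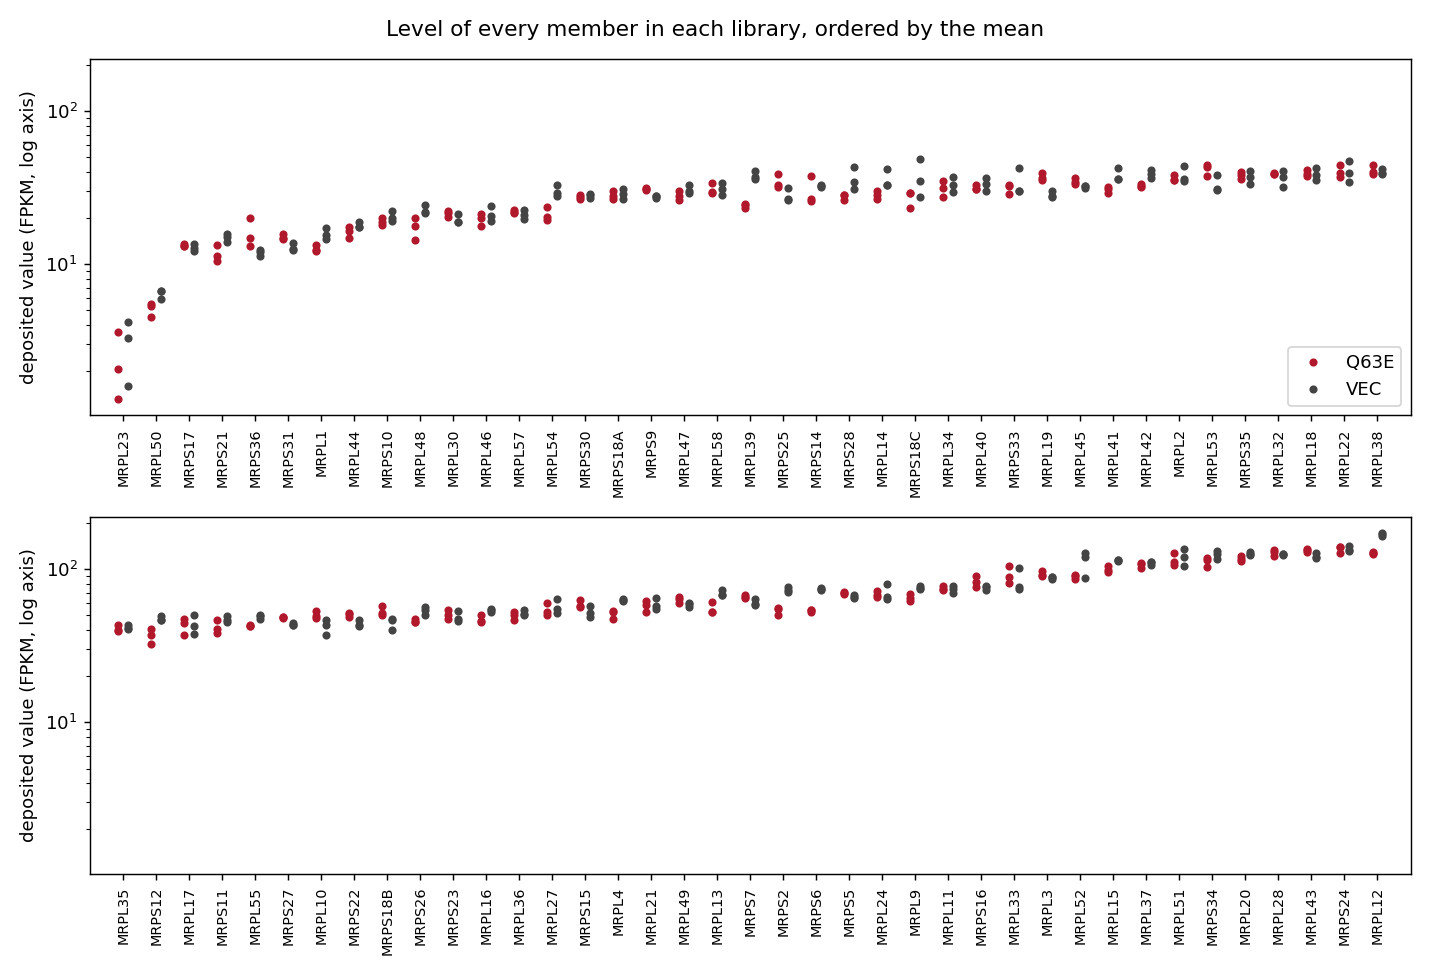
Deposited value (FPKM, log axis) of the 78 members in each library, ordered by the mean over the 6 libraries, with 3 Q63E points (red) left of 3 VEC points (dark grey) for each gene. MRPL23 stands lowest at a mean of 2.67 FPKM and MRPL12 highest at 148 FPKM, and the groups lie close together for most genes.

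Summed over the 78 members, the value was 3754, 3862 and 3973 FPKM in Q63E libraries, against 4241, 3929 and 4017 FPKM in VEC libraries. As a share of each library's total this was 0.516%, 0.521% and 0.538% in Q63E, against 0.552%, 0.527% and 0.536% in VEC, so the groups overlapped. In bulk RNA, fewer cells that express a gene and less RNA per cell cannot be told apart. Of the 78 members, 16 were lower and 4 higher in Q63E cells by limma. The share called lower was 20.5%, beside 14.0% of all genes tested, and the share called higher was 5.13%, beside 11.3%. Called in either direction were 25.6% of the members and 25.3% of all genes, so the members changed about as often as genes at large.

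The differences were small. No member differed by 2-fold, 8 were called lower and 1 higher by at least 1.25-fold, and the log2 differences ran between -0.63 and 0.38. The median over all members was -0.046, beside -0.0023 over all genes tested. Every Q63E library lay below every VEC library for 22 members (28.2%, beside 22.8% of all genes), and above for 15 (19.2%, beside 21.1%). Among the 58 members that were not called, the 95% confidence interval of the difference stayed within 1.25-fold either way for 35. At an unadjusted p under 0.05 by limma the count was 34 of 78. The matching share of all genes is at least the 25.3% called, and is not given here. The counts changed when single libraries were left out, and so did those over all genes. Without the first Q63E library 7 members were called lower, and without the first or the third VEC library 9 each. Higher calls numbered 1 where any 1 Q63E library was left out or VEC library 2 or 3, and 5 without VEC library 1. Over all genes, lower calls numbered 1873 with all libraries and between 1314 and 1483 with any 1 left out. The higher calls over all genes numbered 1510 with all libraries and between 992 and 1138 with any 1 left out.

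Of the 16 lower calls, 12 were of MRPL genes, which made up 49 of the 78 members. Of 49 MRPL genes 12 (24.5%, beside 14.0% of all genes) were lower and 1 (2.04%, beside 11.3%) was higher, with a median difference of -0.059. Of 29 MRPS genes 4 (13.8%) were lower and 3 (10.3%) were higher, both near the shares of all genes, with a median of 0.0033. By structure, 12 of 51 large and 4 of 26 small subunit members were lower. The difference between the subunits was not tested. Lower MRPL calls numbered 4 without the first Q63E library, 7 without Q63E library 2 or 3 or VEC library 1, and 6 without the third VEC library. The MRPL median was -0.017 without the first Q63E library, -0.031 without the first VEC library and -0.11 without the second VEC library. Without the first VEC library 3 MRPL genes were higher and 2 MRPS genes lower, and the 3 higher MRPS calls were all lost when any other library was left out. By library, the median deviation of the MRPL genes from the VEC mean was -0.14, -0.068 and -0.011 in Q63E libraries, against 0.064, -0.038 and -0.030 in VEC libraries, so the groups overlapped. For MRPS genes it was -0.034, 0.042 and 0.073 in Q63E libraries, against 0.027, -0.030 and -0.024 in VEC libraries. Grouped by ancestry, 11 of 45 members with a bacterial counterpart were lower and 2 higher, with a median of -0.058. Of 32 members without one, 5 were lower and 2 higher, with a median of -0.035. Of all genes 14.0% were lower and 11.3% higher. After the chromosomal neighbours were subtracted, as described below, the medians were -0.043 with and -0.087 without a counterpart. The difference between these 2 groups was not tested.

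**Figure D2:**
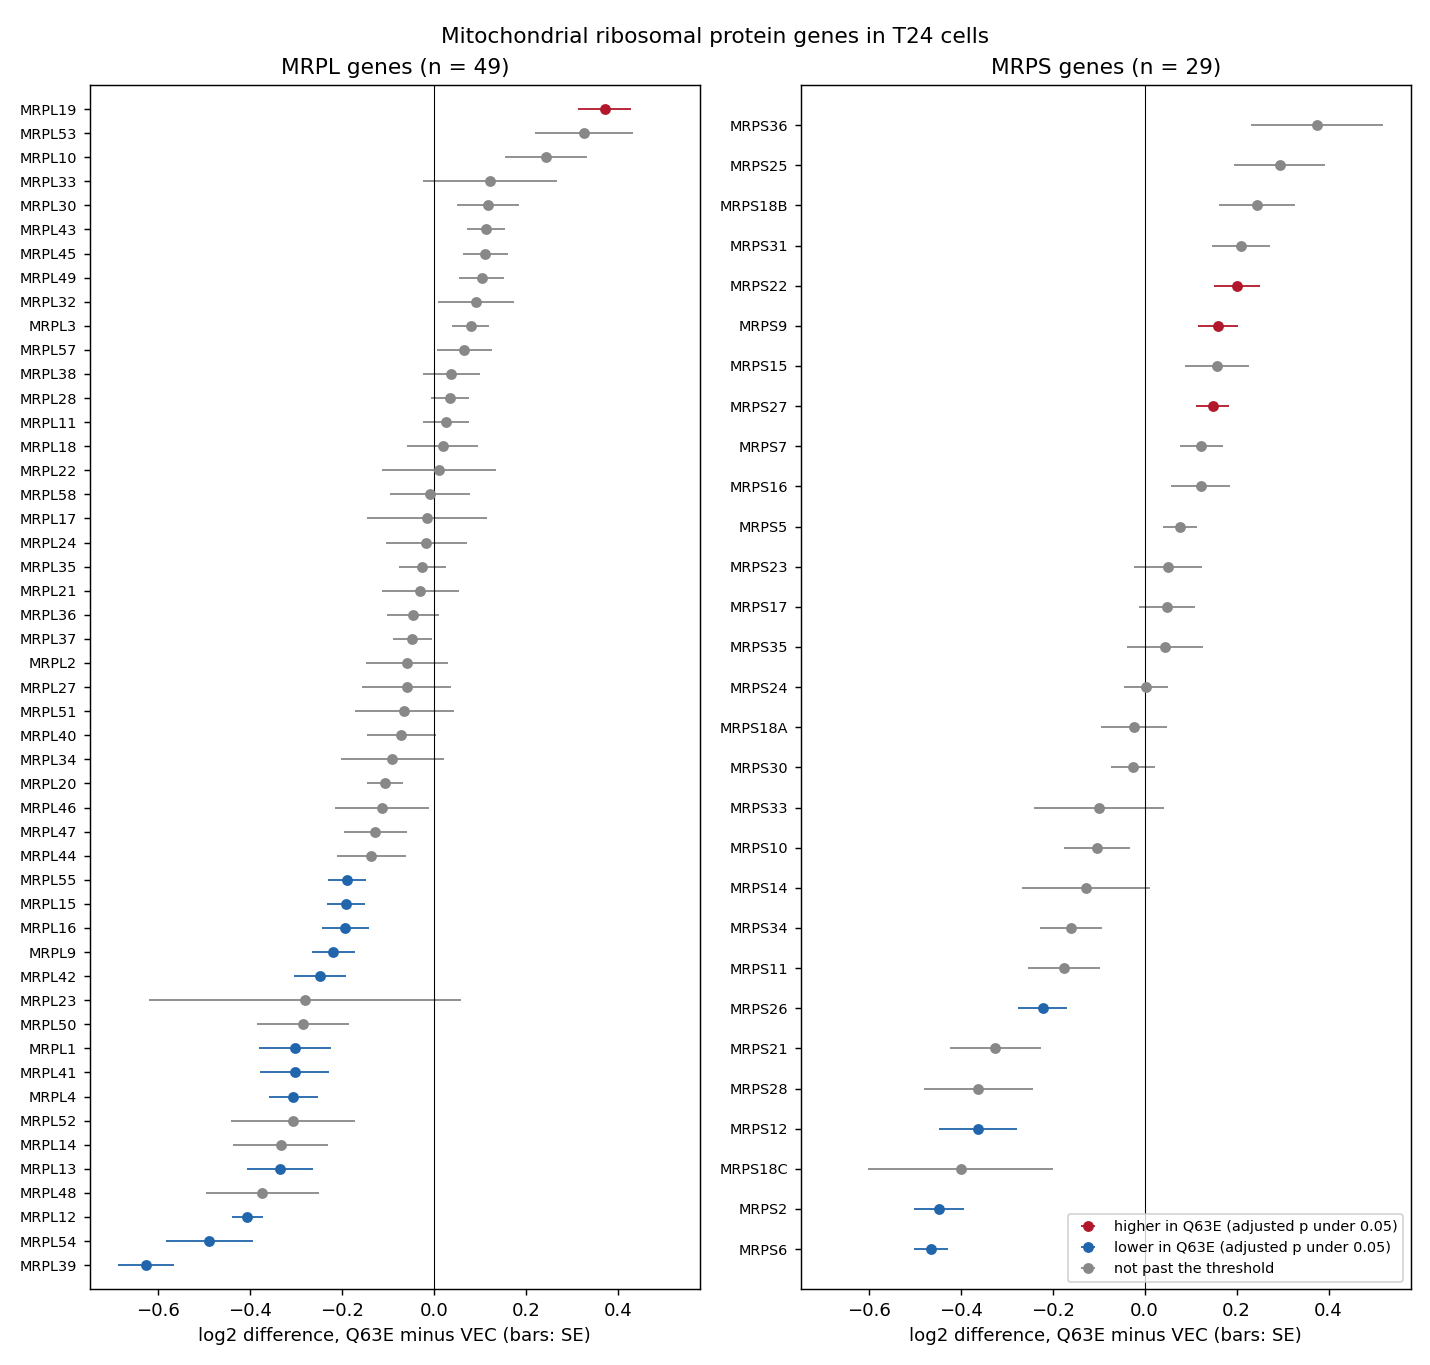
Log2 difference of FPKM + 1 (Q63E minus VEC, x axis, bars are the standard error from limma) of each MRPL gene (left) and MRPS gene (right), coloured by the call at an adjusted p under 0.05. Lower calls (blue) number 12 of 49 MRPL and 4 of 29 MRPS genes, and higher calls (red) 1 and 3.

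MRPL12, MRPL4 and MRPS2 were lower, and MRPL19 was higher, under the first analysis and under each of the 17 alternatives tried. MRPL12 lay at 127, 125 and 130 FPKM in Q63E libraries, against 172, 170 and 165 FPKM in VEC libraries. The groups were far apart beside their spread, and the log2 difference was -0.41 (SE 0.034, adjusted p = 0.000559, limma). MRPS2, a small subunit protein with a bacterial counterpart, lay at 54.7, 50.4 and 56.2 FPKM in Q63E libraries, against 71.2, 76.4 and 73.3 FPKM in VEC libraries. Its difference was -0.45 (SE 0.054, adjusted p = 0.00206, limma). MRPL4, a protein that lines the exit tunnel of the large subunit, had 52.4, 47.3 and 53.5 FPKM in Q63E libraries, against 63.4, 62.4 and 63.9 FPKM in VEC libraries. The difference was -0.30 (SE 0.054, adjusted p = 0.00861, limma), and the 3 VEC libraries lay close together.

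MRPL19, a large subunit protein at the face towards the small subunit, was the only member of the 49 MRPL genes called higher. It had 39.4, 36.6 and 35.5 FPKM in Q63E libraries, against 29.96, 27.99 and 27.6 FPKM in VEC libraries. All Q63E libraries were above all VEC libraries, with a difference of 0.37 (SE 0.058, adjusted p = 0.00543, limma). Its row overlaps GCFC2 on the opposite strand, at a mean of 11.6 FPKM, and whether the counting used the strand is not given in the sources used here.

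Of the 3 most negative differences among called members, 2 belonged to genes on chromosome 21. MRPL39, a large subunit protein found only in mitochondria, stood at 24.3, 24.8 and 23.1 FPKM in Q63E libraries, against 40.6, 35.9 and 36.8 FPKM in VEC libraries. The difference was -0.63 (SE 0.061, adjusted p = 0.000924, limma), or a ratio of means of 0.638. MRPS6, a small subunit protein of bacterial ancestry, stood at 54.1, 52.4 and 54.4 FPKM in Q63E libraries, against 73.9, 73.5 and 75.6 FPKM in VEC libraries. Its difference was -0.46 (SE 0.036, adjusted p = 0.000427, limma). The MRPS6 row spans SLC5A3 on the same strand, at a mean of 9.51 FPKM, with which it may share reads. Other genes around both members were lower too, as described with the chromosomal neighbours.

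**Figure D3:**
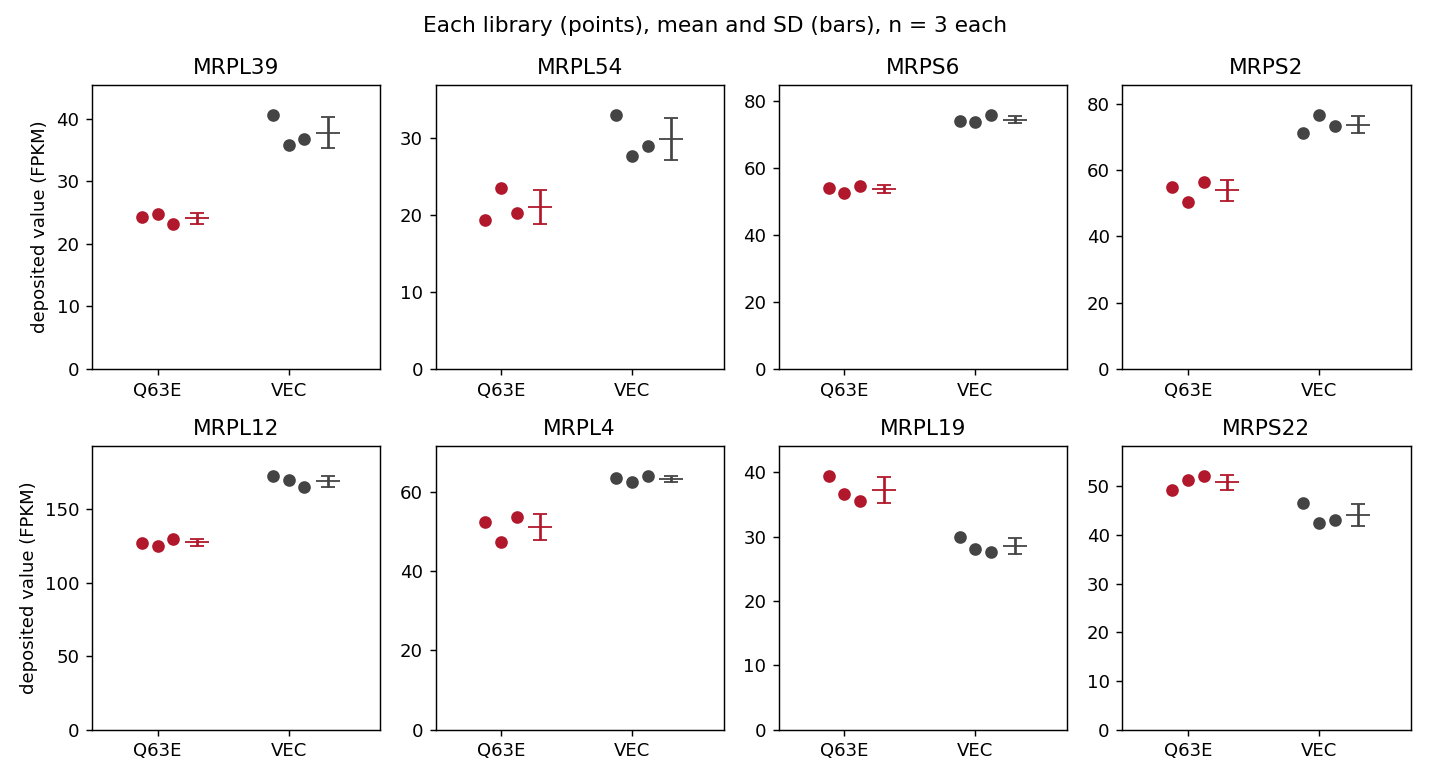
Deposited value (FPKM, y axis from 0) of 8 called members in the 3 Q63E (left, red) and 3 VEC libraries (right, dark grey), with the mean and SD beside the points. MRPL39, MRPL54, MRPS6, MRPS2, MRPL12 and MRPL4 are lower and MRPL19 and MRPS22 higher in Q63E, with no overlap between the groups.

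At the L7/L12 stalk and the nearby centre where the factor GTPases act, 2 of 5 members were lower and none higher. Of all genes, 14.0% were lower and 11.3% higher. The median of the 5 was 0.026, and 3 of them had differences above 0. After the neighbours were subtracted, 1 of the 5 was lower, and the median was 0.095. MRPL12 is described above. MRPL54, a mitochondrial protein of this region, lay at 19.4, 23.6 and 20.2 FPKM in Q63E libraries, against 33.0, 27.7 and 29.02 FPKM in VEC libraries, with a difference of -0.49 (SE 0.095, adjusted p = 0.0125, limma). After its neighbours were subtracted, the adjusted p of MRPL54 was 0.0620 by limma. The base of the stalk, MRPL10, had 50.2 ± 2.9 FPKM in Q63E and 42.3 ± 4.8 FPKM in VEC cells (SD, n = 3 each, adjusted p = 0.0916, limma). MRPL53, also of this region, had 41.6 ± 3.7 FPKM in Q63E and 33.1 ± 4.4 FPKM in VEC cells (SD, n = 3 each, adjusted p = 0.0679, limma). MRPL11 had 75.3 FPKM in Q63E and 74.0 FPKM in VEC cells. The groups of MRPL11 and MRPL53 overlapped, and those of MRPL10 did not.

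Among the other lower MRPL genes, MRPL13 had 52.6, 52.5 and 61.2 FPKM in Q63E libraries, against 73.8, 68.2 and 68.0 FPKM in VEC libraries (difference -0.33, SE 0.072, adjusted p = 0.0175, limma). MRPL1, of the mobile stalk at the other side of the subunit, had 12.2, 12.4 and 13.3 FPKM in Q63E libraries, against 17.3, 14.6 and 15.4 FPKM in VEC libraries (difference -0.30, SE 0.078, adjusted p = 0.0339). MRPL41 differed by -0.30 and MRPL42 by -0.25, both proteins found only in mitochondria. MRPL9, MRPL16, MRPL15 and MRPL55, all with bacterial counterparts, differed by between -0.22 and -0.19. Their groups did not overlap in any of these 8 genes, and their adjusted p-values ran between 0.0175 and 0.0378 by limma. All 8 lost their call without the first Q63E library, and each lost it under between 4 (MRPL42) and 9 (MRPL16) of the 17 alternatives.

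In the small subunit, MRPS12, of the decoding centre, had 32.4, 40.7 and 37.3 FPKM in Q63E libraries, against 49.2, 46.5 and 46.5 FPKM in VEC libraries (difference -0.36, SE 0.084, adjusted p = 0.0228, limma). MRPS26, found only in mitochondria, had 45.9 ± 0.94 FPKM in Q63E and 53.8 ± 3.3 FPKM in VEC cells (SD, n = 3 each, difference -0.22, adjusted p = 0.0270, limma). The 3 MRPS genes called higher moved by at most 0.20. MRPS22, found only in mitochondria, had 49.1, 51.2 and 52.1 FPKM in Q63E libraries, against 46.6, 42.5 and 43.1 FPKM in VEC libraries (difference 0.20, SE 0.050, adjusted p = 0.0291, limma). Its row overlaps COPB2 on the opposite strand, at a mean of 64.0 FPKM. MRPS9, with a bacterial counterpart, differed by 0.16 (adjusted p = 0.0374, limma), and MRPS27, an RNA-binding pentatricopeptide repeat protein, by 0.15 (adjusted p = 0.0255, limma). The call of MRPS22 was lost under 8 of the 17 alternatives, among them the omission of any library but the first VEC library. The calls of MRPS12 and MRPS26 were lost under 7 and 8. The calls of MRPS9 and MRPS27 were lost under 10 of the 17 alternatives each, among them the omission of any 1 library.

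MRPS18C and MRPS36 had the largest differences among members that were not called. MRPS36 had 14.9, 19.9 and 13.1 FPKM in Q63E libraries, against 11.98, 12.4 and 11.3 FPKM in VEC libraries (difference 0.38, SE 0.14, adjusted p = 0.104, limma). MRPS18C had 29.2, 23.2 and 29.1 FPKM in Q63E libraries, against 48.4, 27.6 and 34.8 FPKM in VEC libraries (difference -0.40, SE 0.20, adjusted p = 0.198, limma). Its first VEC library stood above the other two. The paralog MRPS18B had 53.0 ± 3.8 FPKM in Q63E and 44.7 ± 4.1 FPKM in VEC cells (SD, n = 3 each, adjusted p = 0.0748, limma). The third paralog, MRPS18A, had 28.2 FPKM in Q63E and 28.7 FPKM in VEC cells. The other large subunit protein with an MRPS symbol, MRPS30, had 27.5 FPKM in Q63E and 28.0 FPKM in VEC cells.

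Members were next set beside their chromosomal neighbours, as the median difference of the 50 nearest tested genes that are not members. Around 6 members the neighbours were lower by more than 0.2. These were MRPL1 and MRPS18C on chromosome 4, MRPL39 and MRPS6 on chromosome 21, and MRPL50 and MRPS2 on chromosome 9. Of these 6, 4 were lower and none higher, with a median of -0.42. Among all genes with such neighbours, 634 of 1322 were lower. Around 70 members the neighbours lay within 0.2 of zero, and 12 of them were lower and 4 higher, with a median of -0.027. Among all genes with neighbours in that range, 1218 of 11426 were lower and 1230 higher, with a median of 0.0087. Around MRPS25 on chromosome 3 and MRPS23 on chromosome 17 the neighbours were higher by more than 0.2, and neither was called.

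The neighbours of MRPL39 differed by -0.40 and those of MRPS6 by -0.43. After their deviation in each library was subtracted, MRPL39 differed by -0.23 (adjusted p = 0.0553, limma) and MRPS6 by -0.034 (adjusted p = 0.703, limma). For MRPL1, with neighbours at -0.51, the remainder was 0.21 (adjusted p = 0.178, limma). For MRPL15, with neighbours at -0.19, it was 0.0035 (adjusted p = 0.959, limma). MRPL12 (-0.26), MRPS2 (-0.24), MRPL4 (-0.24), MRPL42 (-0.24), MRPL16 (-0.22) and MRPL19 (0.23) kept their calls. In all, 14 of the 20 calls were lost, 11 lower and 3 higher, and 2 members, MRPL20 and MRPS31, were called that were not before. That left 6 lower members (7.69%, beside 8.86% of all genes) and 2 higher (2.56%, beside 8.24%).

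**Figure D4:**
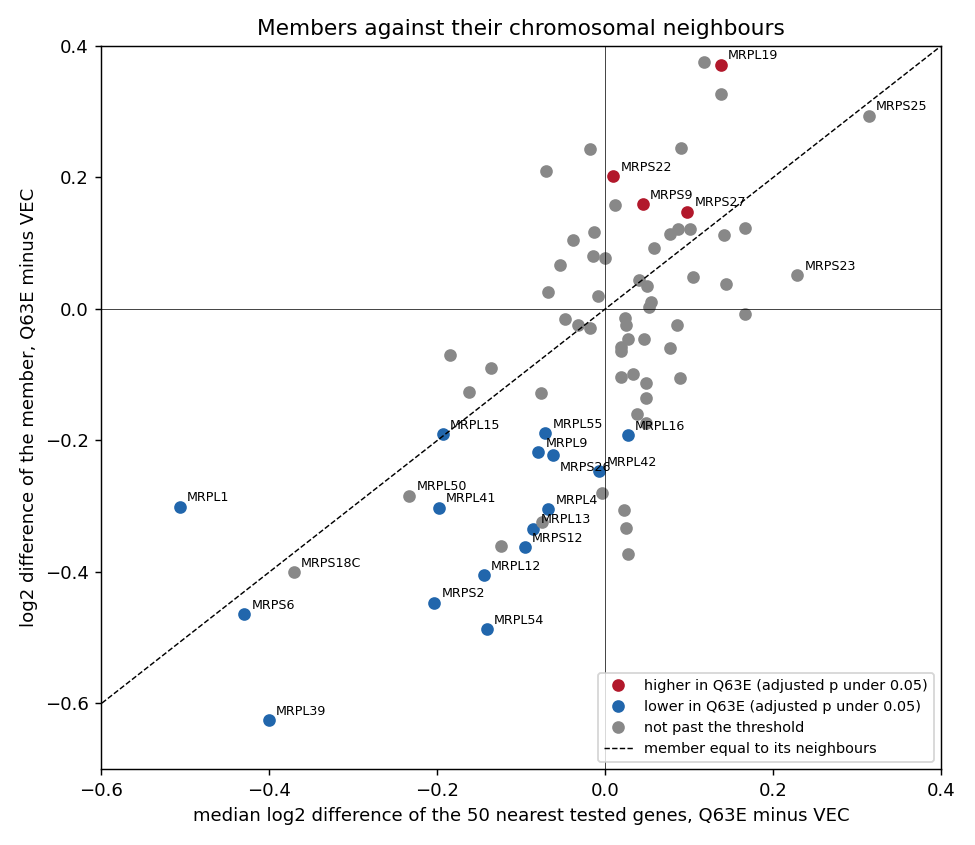
Log2 difference of each member (y axis, Q63E minus VEC) against the median log2 difference of its 50 nearest tested genes (x axis), coloured by the call at an adjusted p under 0.05, with a dashed line where both are equal. MRPS6 lies near the line at -0.46 and -0.43, whereas MRPL12 and MRPL19 lie off it.

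The promoter windows of the members were examined for the letters of 3 factors known to act on nuclear genes for mitochondrial proteins. These are NRF1, the ETS-family factor GABP and YY1. RefSeq windows of 300 bases (GRCh38.p14, 250 before and 50 from the annotated start) were held for 69 members, and for 27305 genes in all. The NRF1 letters GCATGCGC, searched on both strands, were in 6 of the 69 windows (8.70%, beside 3.27% of all windows). The ETS letters CCGGAAGT were in 11 (15.9%, beside 4.43%). The YY1 letters AANATGGCG were in 18 (26.1%, beside 3.37%), and any of the 3 were in 29 (42.0%, beside 10.2%). Matches overlapped in MRPL17 alone, where 2 matches of the NRF1 letters shared bases. Among windows of protein-coding genes alone the shares were 4.26%, 6.19%, 4.81% and 14.0%.

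Most matches of the YY1 letters lay shortly after the start, though not at a fixed base. Of their 20 matches, 16, in 16 members, began between 6 and 35 bases after the annotated start, and all 16 read along the gene's strand. That arrangement was found in 23.2% of the members' windows and in 1.59% of all windows (2.65% for protein-coding genes). The matches contain ATG, and whether this is the start codon was not examined. The 30 bases around the match are shown for 8 members, RefSeq GRCh38.p14, 5′ to 3′ on the gene's strand, with the match in capitals. MRPL42 (chr12:93467512-93467541, +), MRPL9 (chr1:151763463-151763492, -) and MRPL1 (chr4:77862836-77862865, +) were called lower, and MRPS9 (chr2:105038080-105038109, +) higher. MRPL46 (chr15:88467361-88467390, -), MRPS24 (chr7:43869479-43869508, -), MRPL50 (chr9:101398576-101398605, -) and MRPS18B (chr6:30617853-30617882, +) were not called.
MRPL42: ggattgaaacAAGATGGCGggttcgtggtg
MRPL9: tgtgcctgtgAACATGGCGgcgcccgttgt
MRPL1: cggagtgcccAACATGGCGgcggccgtaag
MRPS9: tcccacagctAACATGGCGgcgccctgtgt
MRPL46: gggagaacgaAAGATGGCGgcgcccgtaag
MRPS24: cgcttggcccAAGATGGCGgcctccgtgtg
MRPL50: gatctcatcgAAGATGGCGgcgcgatctgt
MRPS18B: ggcgtacgtcAAGATGGCGgcgtctgtatt

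**Figure D5:**
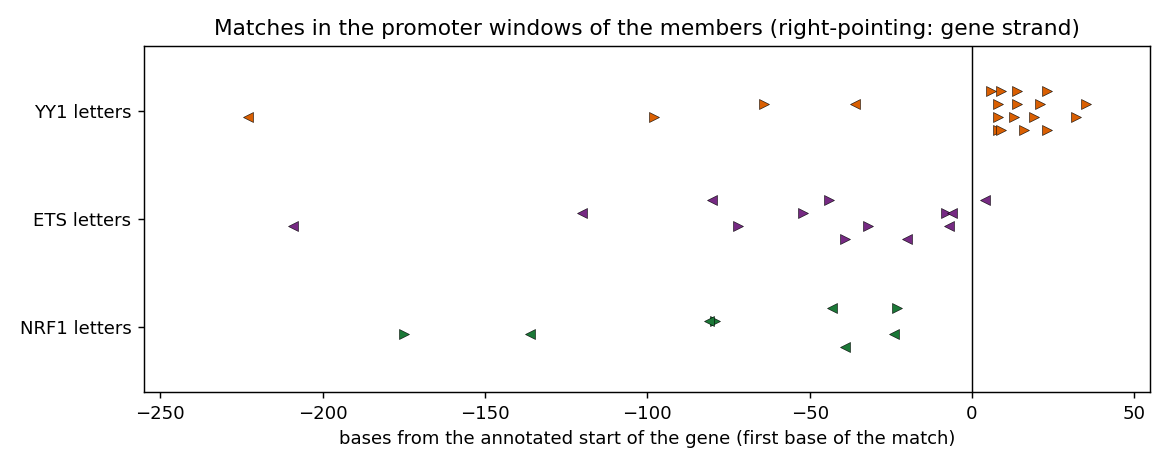
First base of each match to the NRF1, ETS and YY1 letters in the promoter windows of 69 members, as bases from the annotated start (x axis), with right-pointing markers for the gene's strand and left-pointing for the other. Of 20 YY1 matches 16 lie between 6 and 35 bases after the start, and 10 of 13 ETS and 6 of 8 NRF1 matches lie in the 100 bases before it.

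The ETS and NRF1 letters lay mainly before the start, with 10 of 13 ETS matches and 6 of 8 NRF1 matches in the 100 bases before it. They are shown in the same way for members that hold them there. MRPS22 (chr3:139343904-139343933, +), called higher, and MRPL16 (chr11:59810766-59810795, -), called lower, hold the ETS letters on the other strand. MRPL27 (chr17:50373173-50373202, -), not called, holds them on its own. MRPL17 (chr11:6683400-6683429, -) and MRPS18B (chr6:30617807-30617836, +), neither called, hold the NRF1 letters.
MRPS22 ETS: ggcccggaagACTTCCGGccctttccgcct
MRPL16 ETS: agtgaacacaACTTCCGGccccactgagcg
MRPL27 ETS: cttttcgagaCCGGAAGTgagtgatcgaaa
MRPL17 NRF1: gctctgatgcGCATGCGCaaacacgttcac
MRPS18B NRF1: gtttcctgaaGCATGCGCagttgcctttcc

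Called members occurred with and without these letters. Of 29 members with any of the 3, 4 were lower and 2 higher, with a median of -0.059. Of 40 members with none, 10 were lower and 2 higher, with a median of 0.0056. The shares of all genes were 14.0% lower and 11.3% higher. After the neighbours were subtracted, 3 of the 29 were lower and none higher, and 3 of the 40 were lower and 2 higher. The difference between the members with and without these letters was not tested. MRPL12, MRPS2, MRPL4 and MRPL19, the members called under all alternatives, had none of the 3 in their windows, nor had MRPL39, MRPS6 and MRPL54. The stretch from 120 bases before to 30 bases from the start is shown for 3 of them, so that it can be read beside the windows above. MRPL12 lies at chr17:81703247-81703396, MRPL4 at chr19:10251831-10251980 and MRPL19 at chr2:75646663-75646812, all on the + strand of GRCh38.p14.
MRPL12: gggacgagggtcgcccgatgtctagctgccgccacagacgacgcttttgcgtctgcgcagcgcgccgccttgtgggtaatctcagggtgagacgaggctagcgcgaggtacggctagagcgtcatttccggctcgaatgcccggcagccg
MRPL4: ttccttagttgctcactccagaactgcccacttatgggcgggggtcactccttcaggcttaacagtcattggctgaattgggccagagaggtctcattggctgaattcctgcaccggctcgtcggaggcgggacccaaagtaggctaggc
MRPL19: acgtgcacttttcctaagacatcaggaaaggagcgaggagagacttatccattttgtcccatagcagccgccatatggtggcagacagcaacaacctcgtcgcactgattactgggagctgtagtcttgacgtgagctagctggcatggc

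Of 8 tested genes for regulators of mitochondrial gene programs, 1 was higher and 2 were lower, beside 11.3% and 14.0% of all genes. GABPA, the DNA-binding subunit of GABP, had 6.69, 6.78 and 6.39 FPKM in Q63E libraries, against 9.21, 9.91 and 9.66 FPKM in VEC libraries (difference -0.48, SE 0.069, adjusted p = 0.00412, limma). GABPA lies near MRPL39 on chromosome 21, its neighbours were at -0.40, and its remainder was -0.074 (adjusted p = 0.555, limma). NRF1 had 8.75 ± 0.48 FPKM in Q63E and 10.3 ± 0.23 FPKM in VEC cells (SD, n = 3 each, adjusted p = 0.0661, limma). YY1 had 26.6 FPKM in Q63E and 26.4 FPKM in VEC cells. MYC, which activates many genes of ribosome formation, had 61.9 ± 1.9 FPKM in Q63E and 43.8 ± 3.9 FPKM in VEC cells (SD, n = 3 each, difference 0.49, adjusted p = 0.00358, limma). ESRRA, a nuclear receptor of mitochondrial gene programs, fell by 0.36 on the log2 scale (adjusted p = 0.0140, limma), and the coactivator gene PPRC1 had 44.4 FPKM in Q63E and 44.0 FPKM in VEC cells.

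Several members share a start region with a gene on the other strand. Within 1000 bases and without overlap at the starts, 17 members had such a partner in 16 pairs, 13 of them with starts at most 100 bases apart. Pairs whose genes overlap at their starts, such as MRPS12 and SARS2, were not counted. Both partners of 13 pairs could be tested, 11 had differences of the same sign, and in none were both called. The signs differed for MRPL27 (-0.059) with EME1 (0.29, called higher) and for MRPL57 (0.067) with SKA3 (-0.28, called lower). Some differences of the same sign were small, as for MRPL18 (0.019) with TCP1 (0.0093). How often other close pairs of genes have the same sign was not examined. One pair joins members of both subunits, MRPS11 and MRPL46, whose starts lie 34 bases apart. MRPS11 had 41.8 ± 4.3 FPKM in Q63E and 47.2 ± 2.0 FPKM in VEC cells, and MRPL46 had 19.6 ± 1.8 FPKM in Q63E and 21.3 ± 2.5 FPKM in VEC cells (SD, n = 3 each). Neither was called.

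The remaining parts of the mitochondrial translation system were described from lists of known function, and their background is the 11.3% of all genes higher and 14.0% lower. Of 5 ribosomal proteins with other names, GADD45GIP1 of the large subunit was lower (difference -0.18, adjusted p = 0.0438, limma) and none was higher, with a list median of -0.13. The other 4, DAP3, AURKAIP1, CHCHD1 and PTCD3, were not called. Of 26 assembly factors 2 were higher and 5 lower, with a median of -0.011. RPUSD3, a pseudouridine synthase family protein, had 36.5, 36.2 and 31.3 FPKM in Q63E libraries, against 18.9, 19.8 and 21.4 FPKM in VEC libraries, and its difference of 0.76 (SE 0.079, adjusted p = 0.00119, limma) was larger in size than that of any of the 78 members. YBEY, an endoribonuclease, differed by -0.77 (adjusted p = 0.0202, limma) and NOA1, a GTPase, by -0.42 (adjusted p = 0.0180, limma). After the neighbours were subtracted as for the members, RPUSD3 differed by 0.43 (adjusted p = 0.0167, limma) and YBEY by -0.49 (adjusted p = 0.115, limma). NOA1 then differed by -0.068 (adjusted p = 0.621, limma) and GADD45GIP1 by -0.10 (adjusted p = 0.345, limma). The assembly factors FASTKD2 (-0.33, adjusted p = 0.0116, limma) and RCC1L (-0.19, adjusted p = 0.0259, limma) kept their lower calls. AURKAIP1 (adjusted p = 0.0488, limma) and CHCHD1 (adjusted p = 0.0397, limma) were called lower only after this step. Of the 26 assembly factors 3 were then lower and 1 higher.

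Of 19 translation factors 3 were higher and 1 lower, with a median of -0.049. The initiation factor MTIF2 differed by 0.31 (adjusted p = 0.0295, limma), the elongation factor TUFM by 0.15 (adjusted p = 0.0153, limma) and the membrane insertase OXA1L by 0.14 (adjusted p = 0.0227, limma). GUF1, an elongation factor 4 homolog, differed by -0.25 (adjusted p = 0.0332, limma). After the neighbours were subtracted, GUF1 turned to 0.018 (adjusted p = 0.879), and MTIF2 (adjusted p = 0.102), TUFM (adjusted p = 0.0524) and OXA1L (adjusted p = 0.0740) lost their calls by limma. Of 20 genes for charging mitochondrial transfer RNAs, HARS2 alone was called, and it was higher (difference 0.25, adjusted p = 0.0161, limma), with a list median of 0.012. Over these 4 lists 6 genes were higher and 7 lower, and after the neighbours were subtracted 2 were higher and 8 lower. Without 1 library they numbered between 2 and 5 higher, with 2 where the first Q63E library was left out, and between 3 and 6 lower, with 3 where the first Q63E or the third VEC library was left out.

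The ribosomal RNAs that these proteins bind are encoded on the mitochondrial chromosome. MT-RNR1, of the small subunit, had 1261, 1241 and 1069 FPKM in Q63E libraries, against 1182, 1248 and 1357 FPKM in VEC libraries (difference -0.086, adjusted p = 0.472, limma). MT-RNR2, of the large subunit, had 1556, 1684 and 1468 FPKM in Q63E libraries, against 1742, 1865 and 1915 FPKM in VEC libraries (difference -0.23, SE 0.061, adjusted p = 0.0359, limma). Averaged over the 6 libraries, these 2 RNAs stood at 1226 and 1705 FPKM, below the 2787 FPKM of the median mitochondrially encoded protein gene. Whether library preparation removed ribosomal RNA was not tested, so the values may not give its level in the cells. Of the 13 protein genes that the organelle's ribosome translates, 10 were lower and none higher, beside 14.0% and 11.3% of all genes. The median of the 13 genes was -0.52. That median is larger in size than the -0.046 of the 78 ribosomal protein genes.

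Reads of some members may be shared. A gene at 1 FPKM or more overlaps 33 of the 78 members in GENCODE 29, among them FAU at 383 FPKM with MRPL49 and CACYBP at 183 FPKM with MRPS14. Among the pseudogene rows, one for MRPL45 had 3.61, 4.01 and 2.66 FPKM in Q63E libraries, against 3.26, 23.4 and 17.7 FPKM in VEC libraries, while MRPL45 itself had 34.6 ± 1.5 FPKM in Q63E and 32.0 ± 0.72 FPKM in VEC cells (SD, n = 3 each, adjusted p = 0.143, limma).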

How the data were processed

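Total RNA of 6 T24 libraries (3 Q63E, 3 VEC) was sequenced. For each library the authors gave a table of 58882 rows, of which 649 carried no gene name and held 0.274% to 0.511% of a library's value. The deposited values are taken as FPKM, although no header or label names the unit. Totals ran between 726929 and 769026. A search for steps of whole reads placed 24.7% to 26.5% of low values within 0.1 of a whole number, beside 20% without steps, so no reads were recovered and the depth is unknown. HISAT2 2.1.0, Bowtie2 and GRCh38.p10 are named, with no role, per the submitters' processing notes. The counter, the annotation and any filters were not given in the sources used here.

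Symbols were found for 57392 of 58233 Ensembl rows, and gene types and coordinates for 57895 in GENCODE 29. Values were tested as log2(FPKM + 1) for genes with a mean of at least 1, with limma 3.58.1 (lmFit and eBayes with trend, R 4.3.3) in a two-sided test with group as the sole term. P-values were adjusted by Benjamini-Hochberg across the genes tested, with a threshold of 0.05. Such differences understate changes of low genes. The code was tested on simulated data. Named were all called members, the highest and lowest of each subunit, MRPS18A, MRPS18B, MRPS18C, MRPS30, MRPS36, the leading genes of each list and the regulators. MRPL10, MRPL11, MRPL53, MRPL45, MRPL46, MRPS11, MRPL17, MRPL27, OXA1L, the partners sharing reads and the members around a region were named after their values were seen. The members and lists were chosen with earlier results of these data known, and MRPL55 was added to the list of bacterial-type proteins later. Promoter windows came from RefSeq (the first listed window of each gene). Alternatives were the filter, the pseudocount, 4 scalings (TMM on FPKM before the log2 step, without precision weights), neighbours subtracted (regional centring), moderation without trend, the replicate number as a block and the omission of each library.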

Additional observations from a re-analysis of the deposited data

How the results depend on the processing

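Of the 20 called members, MRPL12, MRPL4, MRPS2 and MRPL19 kept their call under all 17 alternatives, and MRPL39 and MRPS6 lost it only under regional centring. The direction reversed for MRPL1 (0.21) and MRPL15 (0.0035) under regional centring, where each member is compared with its own neighbours. The causes of these changes and of those below were not tested. Regional centring gave 6 lower and 2 higher members (MRPL 5 lower, MRPS 1 lower and 1 higher). It gave 1182 lower genes in all, 2 higher and 8 lower genes of the companion lists and an MRPS median of -0.043. The replicate block gave 6 lower and 2 higher members (MRPL 4 lower, MRPS 2 lower and 1 higher), 942 higher genes in all, and 2 higher and 2 lower companion genes. Same-numbered libraries did not deviate together over all tested genes (r = -0.042, -0.0087 and -0.025 for deviations across genes). A batch that moves few genes would not show there, and whether same-numbered libraries share a culture or a batch is not given in the labels. Scaling without the mitochondrial chromosome gave 2 higher members, 1 higher MRPS gene and 3 higher companion genes. Quantile normalization gave 7 higher members (MRPL 2, MRPS 5) and an MRPS median of 0.044. Without trend 1 member, 0 MRPS genes and 3 companion genes were higher by limma, and without a filter 4 companion genes were lower. The median of all genes was -0.014 without the mitochondrial chromosome, 0.0069 with a common median, 0.016 after quantile normalization and 0.0075 after TMM. Without 1 library, counts ran between 992 and 1138 for all genes higher, 7 and 13 for members lower, 1 and 5 for members higher, 4 and 10 for MRPL lower, 1 and 3 for MRPL higher, 2 and 4 for MRPS lower, 0 and 2 for MRPS higher, 2 and 5 for companion genes higher, and 3 and 6 for companion genes lower. The MRPS median then lay between -0.017 and 0.042 and the MRPL median between -0.11 and -0.017. Depth is unknown, so counting error could not be separated from other spread.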
